A study of Homo sapiens with 9 samples.

Results

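A set of 10 genes of protein folding in the endoplasmic reticulum (ER) and of its stress response was followed through 9 RNA-seq libraries. The cells were HEK293, a line from human embryonic kidney. The genes are HSPA5, HSP90B1, CALR, CANX, PDIA3, PDIA4, PDIA6, DNAJB9, XBP1 and HERPUD1. They were chosen by name with earlier results of these data known, so the shares set beside those of all genes below are descriptive. All 10 were found by symbol among the 35876 symbols of the deposited table. The study concerns a reversible, chemically induced gene knockout system. Its labels name 3 genotypes with 3 replicates each: CC_Cas9 (the Cas9 group), CC_Cas9_Cre (the Cre group) and CC_Cas9_Flpo (the Flpo group). All 3 share HEK293 as the cell line, the unexplained prefix CC and Cas9, an RNA-guided DNA nuclease. The Cre and Flpo groups add the site-specific recombinases Cre and Flpo. No targeted gene, inducer, dose, time, promoter or number of clones is given, so the state of the knockout could not be checked. Nothing says that the replicates were separate cultures, and p-values then measure only the spread between these libraries, which may be technical.

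Proteins that enter the secretory pathway fold in the ER with the help of chaperones, lectins and enzymes that form disulfide bonds. When unfolded proteins accumulate, membrane sensors (IRE1, PERK and ATF6) start the unfolded protein response: IRE1 splices the mRNA of XBP1 into the form that encodes an active transcription factor, ATF6 is cut to release another, and PERK slows translation and raises ATF4. Genes of chaperones and of ER-associated degradation (ERAD), which returns misfolded proteins to the cytosol, are their classic targets. Counts per gene do not separate spliced from unspliced XBP1 mRNA, so the splicing step was not measured.

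The libraries differed widely in depth. Total estimated counts were 993902 to 3761779 in the Cas9 group, 213907 to 1701730 in the Cre libraries and 4989524 to 8833491 in the Flpo group. The totals of the Flpo group did not overlap those of the other groups, so depth and the Flpo genotype cannot be told apart. Among the libraries, Cre replicate 2 was the shallowest, with 3741 genes at 10 or more counts against 8177 to 13990 in the others. Flpo replicates 1 and 3 stood apart from Flpo replicate 2 in composition: ACTB, cytoskeletal actin, took 3.71% and 3.51% of their counts but 0.320% in replicate 2, and 0.523% or less in the 6 Cas9 and Cre libraries. The symbol with the highest mean share of counts took 9.99%, 21.9% and 17.7% in Cas9 replicates 1, 2 and 3. It took 17.2%, 1.04% and 1.51% in the Cre libraries and 1.69%, 3.4% and 0.591% in the Flpo libraries. The part of these differences in composition in the results below was not tested. In the HEK293 marker list, 11 of 11 genes had a count in the Cas9 group, 9 in the Cre libraries and 10 in the Flpo group, with PAX2 at 0 in all libraries but 1. Its summed level was 600 to 1396 CPM (counts per 1000000 counts, scaled as below) in the Cas9 group, 532 to 1116 in the Cre libraries and 1594 to 5386 in the Flpo group, where KRT8 and KRT18 made up most of it. The extraction protocol speaks of livers, yet the hepatocyte genes ALB, TTR, SERPINA1, AFP and FGB were at 0 in all Cas9 and Cre libraries and had at most 5 counts in any Flpo library. Of the 10 hepatocyte genes 4, 4 and 8 had a count in the Cas9, Cre and Flpo groups, and their summed level was 23.1 to 54.8, 35.1 to 90.9 and 9.10 to 108 CPM, mostly from TF.

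Promoter sequences are shown first because elements of this response were defined in them. The ER stress response element (ERSE), which is CCAAT and CCACG with any 9 bases between, is known from HSPA5 and is bound by ATF6 together with the CCAAT-binding factor NF-Y. A shorter form, ERSE-II, which is ATTGG and CCACG with any 1 base between, is known from HERPUD1, and the unfolded protein response element, TGACGTGG, is bound by XBP1 and ATF6. RefSeq windows of 300 bases (250 before to 50 after the annotated start, GRCh38.p14) were held for 9 of the 10 genes, and both strands were searched for each motif. ERSE was found in 6 of the 9 (HSPA5, HSP90B1, CALR, CANX, PDIA6 and XBP1), with 2 matches in HSP90B1, against 0.0769% of 35116 promoters. ERSE-II was found in HERPUD1 against 0.0541% of promoters. TGACGTGG was found in 0 of the 9 against 0.729%, and none of the 3 motifs was found in the windows of PDIA4 and DNAJB9. No 2 of these matches overlapped. A match is a run of letters and no proof of binding. In the lines below, capitals mark the letters the motif fixes, each written 5′ to 3′ on its own strand.

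HSPA5, chr9:125241391-125241409, minus strand: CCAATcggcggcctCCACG
HSP90B1, chr12:103930216-103930234, plus strand: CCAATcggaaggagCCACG
HSP90B1, chr12:103930321-103930339, minus strand: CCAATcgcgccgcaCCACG
CALR, chr19:12938384-12938402, minus strand: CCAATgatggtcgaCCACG
CANX, chr5:179698778-179698796, plus strand: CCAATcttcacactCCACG
PDIA6, chr2:10812853-10812871, minus strand: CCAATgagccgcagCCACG
XBP1, chr22:28800603-28800621, minus strand: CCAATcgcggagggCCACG
HERPUD1, chr16:56932025-56932035, plus strand: ATTGGgCCACG

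The match in HSPA5 ended 47 bases before the annotated start, and that in XBP1 33 bases before it. The windows of HSP90B1, CANX and PDIA6 lie inside longer gene models of GENCODE release 29. Longer stretches are printed for the chaperone that is the usual readout of this response, for the transcription factor and for the ERAD gene, whose levels differed less between groups. Those of XBP1 and HERPUD1 end at the base before the GENCODE gene start and that of HSPA5 at the base before the RefSeq start. All are given on the strand of the gene, again with the match in capitals.

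HSPA5, chr9:125241344-125241593, minus strand: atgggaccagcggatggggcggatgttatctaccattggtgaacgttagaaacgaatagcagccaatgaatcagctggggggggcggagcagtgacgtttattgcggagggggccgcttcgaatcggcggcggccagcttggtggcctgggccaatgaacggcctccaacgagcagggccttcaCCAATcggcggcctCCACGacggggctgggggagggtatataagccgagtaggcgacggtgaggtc
XBP1, chr22:28800598-28800819, minus strand: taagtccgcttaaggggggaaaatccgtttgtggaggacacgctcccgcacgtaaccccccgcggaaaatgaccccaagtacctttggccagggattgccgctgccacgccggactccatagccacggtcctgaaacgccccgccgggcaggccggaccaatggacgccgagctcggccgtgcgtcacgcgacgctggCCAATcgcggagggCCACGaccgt
HERPUD1, chr16:56931892-56932047, plus strand: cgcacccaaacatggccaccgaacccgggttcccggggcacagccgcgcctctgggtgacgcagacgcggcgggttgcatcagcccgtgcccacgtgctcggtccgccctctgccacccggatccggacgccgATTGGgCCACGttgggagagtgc

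Levels are given as CPM, scaled between libraries by TMM (trimmed mean of M-values), for replicates 1, 2 and 3 in that order. Overlap between libraries or groups refers to these scaled levels, except where ratios or total counts are named. Gene coordinates are those of GENCODE release 29 (GRCh38).

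The general chaperones come first. HSPA5 (chr9:125234853-125241330, minus strand) encodes BiP, the ER member of the Hsp70 family, which also holds the stress sensors inactive. Its level was 28.3, 71.7 and 108 CPM in the Cas9 group, 47.7, 123 and 48.0 CPM in the Cre libraries and 537, 147 and 826 CPM in the Flpo group. Every Flpo library was above every Cas9 and Cre library, and replicate 2 was the low one of the Flpo group. The means were 69.2 ± 39.8, 73.0 ± 43.5 and 503 ± 341 CPM (SD, n = 3 each). The log2 fold change of Flpo against Cas9 was 2.86 (SE 0.74; edgeR adjusted p = 0.0813), which did not pass the threshold of 0.05. Against Flpo, the Cre group fell by 2.83 on the log2 scale (SE 0.75; edgeR adjusted p = 0.025), a 7.11-fold lower level. Cre against Cas9 gave 0.03 (SE 0.71; edgeR adjusted p = 0.99), with overlapping groups.

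HSP90B1 (chr12:103930107-103953645, plus strand) encodes GRP94, the ER member of the Hsp90 family. It stood at 199, 259 and 291 CPM in the Cas9 group, 397, 164 and 320 CPM in the Cre libraries and 891, 355 and 1332 CPM in the Flpo group. All Flpo libraries were above all Cas9 libraries, but Flpo replicate 2 lay below Cre replicate 1. Flpo against Cas9 gave a log2 fold change of 1.78 (SE 0.63; edgeR adjusted p = 0.147) and Cre against Flpo one of -1.54 (SE 0.63; edgeR adjusted p = 0.0892). Neither passed the threshold, nor did Cre against Cas9 at 0.24 (SE 0.61; edgeR adjusted p = 0.873).

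The lectin chaperones bind the sugar chains of newly made glycoproteins. CALR (chr19:12938578-12944489, plus strand) encodes the soluble calreticulin. CALR measured 34.9, 78.0 and 119 CPM in the Cas9 group, 91.6, 26.1 and 22.3 CPM in the Cre libraries and 344, 95.6 and 454 CPM in the Flpo group. Here Flpo replicate 2 lay inside the range of the Cas9 group, while all Cre libraries were below all Flpo libraries. The Cre group fell by 2.62 on the log2 scale against Flpo (SE 0.75; edgeR adjusted p = 0.0307). Flpo against Cas9 gave 1.94 (SE 0.72; edgeR adjusted p = 0.162), short of the threshold. Cre against Cas9 gave -0.68 (SE 0.71; edgeR adjusted p = 0.704), the lowest value of the 9 tested genes in that comparison.

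CANX (chr5:179678628-179730925, plus strand) encodes calnexin, the membrane-bound lectin. CANX ran at 133, 201 and 173 CPM in the Cas9 group, 238, 142 and 154 CPM in the Cre libraries and 317, 165 and 539 CPM in the Flpo group. All 3 groups overlapped, and Flpo replicate 2 was within the range of both other groups. No comparison passed the threshold: the log2 fold changes were 1.01 for Flpo against Cas9, -0.93 for Cre against Flpo and 0.08 for Cre against Cas9 (SE 0.54 in each; edgeR adjusted p = 0.316, 0.209 and 0.955).

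The protein disulfide isomerases form and rearrange disulfide bonds. PDIA3 (chr15:43746392-43773279, plus strand), known as ERp57, works with both lectins. Its libraries read 42.4, 35.6 and 39.4 CPM in the Cas9 group, 44.3, 101 and 42.9 CPM in the Cre libraries and 286, 51.6 and 372 CPM in the Flpo group. The Cas9 libraries lay close together, at 39.1 ± 3.41 CPM (SD, n = 3), and all Flpo and all Cre libraries were above them, the nearest narrowly (42.9 against 42.4 CPM). Flpo replicate 2 lay below Cre replicate 2. The log2 fold change was 2.60 for Flpo against Cas9 (SE 0.67; edgeR adjusted p = 0.0813). It was -1.96 for Cre against Flpo (SE 0.67; edgeR adjusted p = 0.0518) and 0.63 for Cre against Cas9 (SE 0.66; edgeR adjusted p = 0.702), so none passed. Reads of PDIA3 can be shared with the processed pseudogene PDIA3P1, which held 387 counts over the 9 libraries, 8.40% of those of PDIA3. That share was not even between groups. PDIA3P1 had 12.02, 8.49 and 18.42 counts in the Cas9 group, beside 50.558, 61.97 and 138.42 of PDIA3. In the Cre libraries it had 21.48, 8.87 and 29.23, beside 91.12, 27.163 and 49.904. In the Flpo group it had 110.2, 28.32 and 152.5, beside 1658.3, 202.4 and 2330.8. Relative to PDIA3 it was higher in every Cre library than in any Flpo library. The part of shared reads in the levels of PDIA3 was not tested.

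PDIA4 (chr7:149003062-149028641, minus strand), known as ERp72, gave 15.8, 17.8 and 24.8 CPM in the Cas9 group, 21.4, 33.6 and 29.2 CPM in the Cre libraries and 104, 25.05 and 155 CPM in the Flpo group. Flpo replicate 2 exceeded the highest Cas9 library only narrowly and lay inside the range of the Cre group. The log2 fold changes of 2.27 for Flpo against Cas9 (SE 0.62; edgeR adjusted p = 0.0908) and -1.79 for Cre against Flpo (SE 0.62; edgeR adjusted p = 0.057) did not pass the threshold. Cre against Cas9 gave 0.48 (SE 0.62; edgeR adjusted p = 0.748).

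PDIA6 (chr2:10783391-10837977, minus strand), known as P5, had the largest fold change of the 10 genes in both comparisons with Flpo. It measured 14.1, 24.1 and 33.1 CPM in the Cas9 group, 33.1, 14.9 and 19.7 CPM in the Cre libraries and 266, 41.7 and 445 CPM in the Flpo group. No Flpo library overlapped another group, although replicate 2 was 6.39-fold below replicate 1. PDIA6 fell in the Cre group against Flpo by 3.41 on the log2 scale (SE 0.77; edgeR adjusted p = 0.0185), or 10.6-fold. The log2 fold change of Flpo against Cas9 was 3.38 (SE 0.75; edgeR adjusted p = 0.0655), and that of Cre against Cas9 was -0.03 (SE 0.72; edgeR adjusted p = 0.99).

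DNAJB9, XBP1 and HERPUD1 act in the response itself and in degradation. DNAJB9 (chr7:108569568-108574850, plus strand) encodes ERdj4, a co-chaperone of BiP that dampens IRE1. It had 3, 2 and 8 estimated counts in the Cas9 libraries, 0, 0 and 3 in the Cre libraries and 30, 5 and 27 in the Flpo libraries. These counts were too few for the filter on low counts, so DNAJB9 is the one of the 10 that was not tested. Its levels of 1.15 to 2.49 CPM in the Cas9 group and 1.28 to 5.18 CPM in the Flpo group overlapped. The 2 Cre libraries at 0, replicates 1 and 2, allow levels of up to 1.46 and 11.2 CPM, taking 3 counts as the limit for counting error. Cre replicate 3 was at 2.57 CPM. Flpo replicates 1 and 3, at 5.18 and 4.31 CPM, were above the limit of Cre replicate 1, but Flpo replicate 2 was not, at 1.28 CPM. The limit of Cre replicate 2 was above every Flpo library, so the counts could not settle a difference in DNAJB9. Where other fits tested it, its adjusted p was 0.272 to 1.

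XBP1 (chr22:28794555-28800597, minus strand) encodes the transcription factor made active by IRE1. Its level was 5.82, 10.9 and 14.8 CPM in the Cas9 group, 9.26, 14.9 and 6.86 CPM in the Cre libraries and 89.0, 21.5 and 103 CPM in the Flpo group. The value in Cre replicate 2 rests on 4 counts. All Flpo libraries were above all others, with replicate 2 again the lowest of its group. XBP1 fell by 2.89 on the log2 scale in Cre against Flpo (SE 0.70; edgeR adjusted p = 0.0202). Flpo against Cas9 gave 2.72 (SE 0.65; edgeR adjusted p = 0.0692) and Cre against Cas9 gave -0.17 (SE 0.69; edgeR adjusted p = 0.922), and neither passed.

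HERPUD1 (chr16:56932048-56944863, plus strand) encodes a membrane protein of the ERAD complex around the ubiquitin ligase HRD1. It ran at 23.3, 13.2 and 16.3 CPM in the Cas9 group, 18.5, 41.1 and 44.6 CPM in the Cre libraries and 35.7, 29.4 and 46.6 CPM in the Flpo group. All Flpo libraries were above the Cas9 libraries, and 2 of the 3 Cre libraries were as well. Its log2 fold changes were 1.09 for Flpo against Cas9, 0.96 for Cre against Cas9 and -0.13 for Cre against Flpo (SE 0.52, 0.54 and 0.52; edgeR adjusted p = 0.261, 0.619 and 0.867). None passed the threshold. HERPUD1 had the highest value of the 9 tested genes in Cre against Cas9 and the value closest to 0 in Cre against Flpo.

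**Figure D1:**
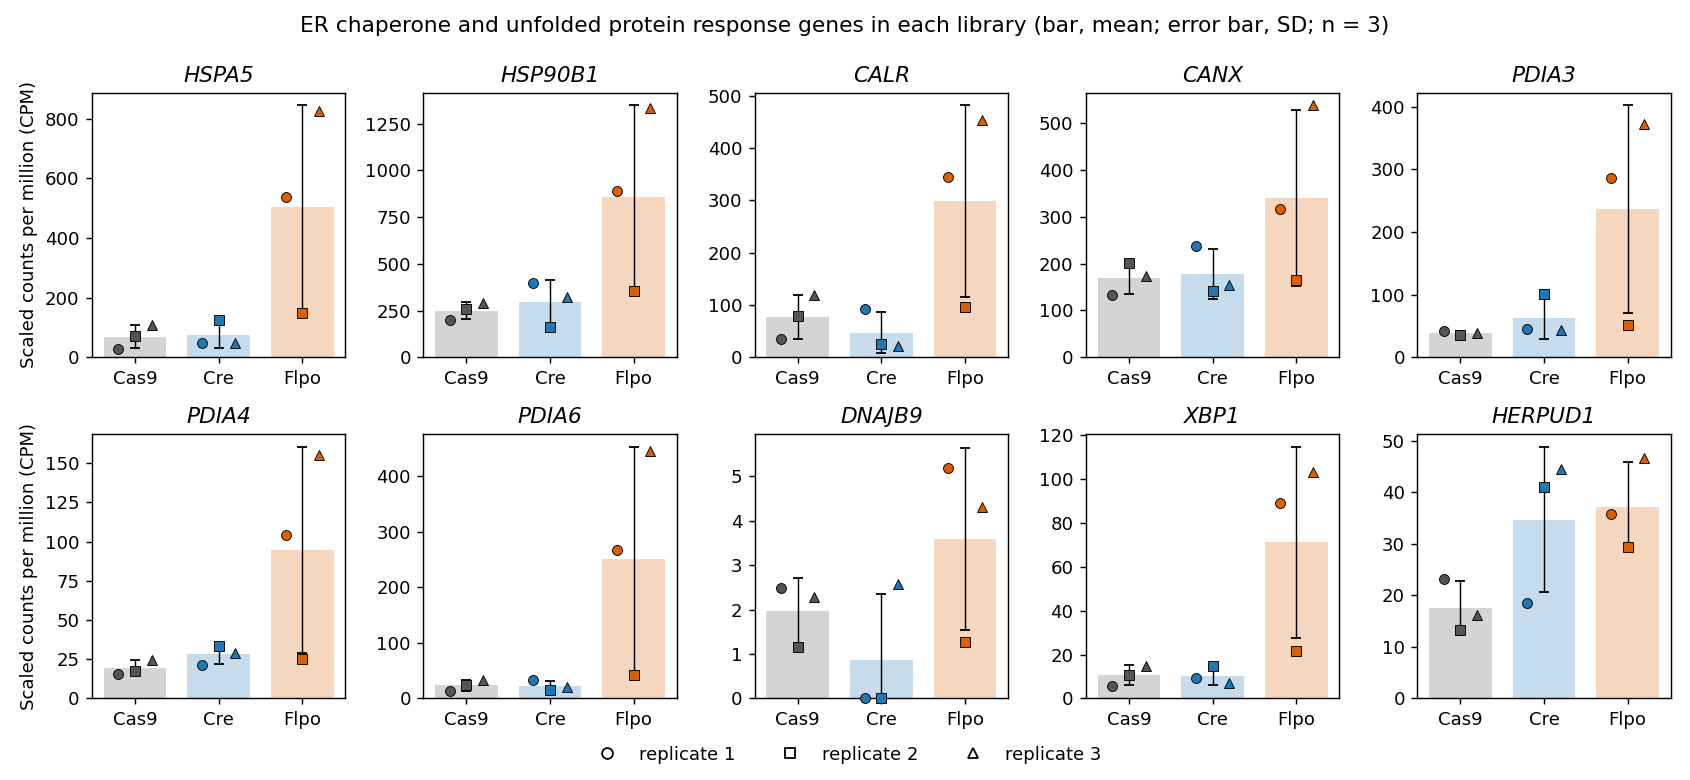
Level of each of the 10 genes in each library, in TMM-scaled CPM on linear axes from 0, by group; symbols are replicates, bars the mean and error bars the SD (n = 3). Flpo replicate 2 (square) is below Flpo replicates 1 and 3 (circle, triangle) for all 10 genes, as for 52.8% of 11898 genes. The DNAJB9 panel rests on 30 counts or fewer a library.

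Over the list, Flpo against Cas9 gave higher mean levels of every tested gene without a call. Of the 9 tested genes 0 passed the adjusted threshold in edgeR, where 0.227% of all 11905 genes tested did. At an unadjusted p under 0.05 there were 7 of 9, against 20% of all genes. DESeq2 called 6 of the 10 higher (HSPA5, HSP90B1, PDIA3, PDIA4, PDIA6 and XBP1), where it called 7.55% of the genes it tested, and limma voom with sample quality weights called 9 of 9, where it called 61% of all genes. All 9 log2 fold changes were above 0, with a median of 2.27 against 0.05 for all genes. In 7 of the 10 (all but CALR, CANX and DNAJB9) the 3 Flpo libraries were above the 3 Cas9 libraries in TMM-scaled CPM, against 12.8% of all genes tested. Scaled by total count alone, PDIA3, PDIA4 and HERPUD1 overlapped as well. In a bulk library, fewer cells of a type and less RNA per cell cannot be told apart.

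In Cre against Flpo, 4 of the 9 tested genes (HSPA5, CALR, PDIA6 and XBP1) fell and 0 rose, against 20.5% of all genes called (14.3% called lower). The same 4 were the ones whose groups did not overlap in TMM-scaled CPM, against 27.9% of all genes with Cre below Flpo. Scaled by total count alone, the groups overlapped for each of these 4, as Flpo replicate 2 lay below a Cre library. HSPA5 had 576 of 4989524 counts in Flpo replicate 2 and 33.2 of 213907 in Cre replicate 2. All 9 log2 fold changes were below 0, with a median of -1.96 against -0.34 for all genes. Both comparisons use the same Flpo libraries, so they are not independent of each other. Scaling by total count alone moved the median of all genes from -0.34 to 0.44 and turned their split from 1705 lower and 735 higher to 840 lower and 2039 higher. Relative to that median the members moved little: PDIA6 stood at -3.07 with TMM and -3.05 without, and HSPA5 at -2.49 and -2.46, but only PDIA6 and XBP1 then passed, where 24.2% of all genes were called. HERPUD1 is the exception in sign, with -0.13 under TMM and 0.67 without it, yet 0.21 and 0.23 relative to the median.

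Cre against Cas9 gave no call among the 9 in edgeR (0 of all 11905 genes) or DESeq2 (0.0158% of its genes), and 0 of the 9 were at an unadjusted p under 0.05, against 7.38% of all genes. Log2 fold changes ran from -0.68 (CALR) to 0.96 (HERPUD1), with a median of 0.08 against -0.22 for all genes. Only PDIA3 had all Cre libraries above all Cas9 libraries, against 3.46% of all genes. The voom fit called CALR lower and HERPUD1 higher, where it called 33.3% of all genes. Standard errors ran from 0.54 to 0.72, and a missing call does not show that the groups were alike.

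**Figure D2:**
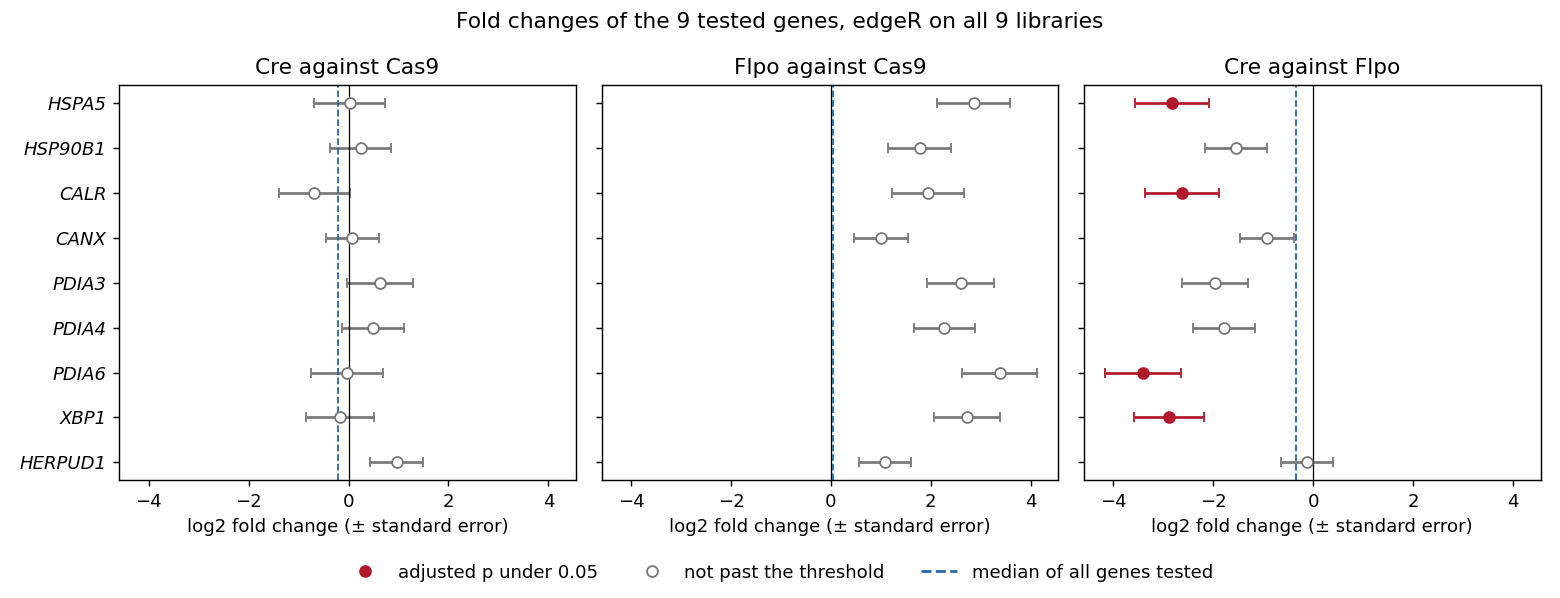
Log2 fold change (point) and standard error (bar) of the 9 tested genes in the 3 comparisons, from edgeR on all 9 libraries; the dashed line is the median of all genes tested and filled red points passed the adjusted threshold. In Flpo against Cas9 all points lie right of the median without a call, and in Cre against Flpo PDIA6, XBP1, HSPA5 and CALR are the calls.

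How many of these genes passed depended on single libraries. Leaving out Flpo replicate 2, 7 genes (all tested ones but CANX and HERPUD1) rose in Flpo against Cas9, where 21.3% of all genes were then called, and the same 7 fell in Cre against Flpo, where 44.1% were. PDIA6 then reached a log2 fold change of 3.87 (SE 0.54; edgeR adjusted p = 0.0019) against Cas9 and HSPA5 one of 3.28 (SE 0.63; edgeR adjusted p = 0.00604). Leaving out Cre replicate 2, Cre replicate 3, Flpo replicate 1 or Flpo replicate 3 instead left 0 of the 4 calls of Cre against Flpo (3.28% of all genes called without Flpo replicate 3, and 0 genes in the other 3 fits). Without Cas9 replicate 1 PDIA3 joined the 4 (24.5% of all genes called), and without Cas9 replicate 2 CALR left them (10% called). With log2 of the total count as a covariate, no gene of the table was called in any comparison, and HSPA5 in Cre against Flpo stood at -2.80 (SE 1.58; edgeR adjusted p = 0.799).

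Flpo replicate 2 was lower than both other Flpo libraries for all 10 genes, as for 52.8% of 11898 genes. Replicates 1 and 3 were both more than 3 times above it for HSPA5, CALR, PDIA3, PDIA4, PDIA6, DNAJB9 and XBP1, 7 of the 10, as for 7.73% of those genes. The lower of the 2 exceeded it 6.39-fold for PDIA6, 5.54-fold for PDIA3 and 3.64-fold for HSPA5 but 1.22-fold for HERPUD1. In TMM-scaled CPM, Flpo replicate 2 was above the Cas9 range for 7 of the 10, against 22.7% of the 11905 genes tested. HSPA5 was at 147 CPM against at most 108 CPM and XBP1 at 21.5 against at most 14.8 CPM. Scaled by total count alone, PDIA3, PDIA4 and HERPUD1 in Flpo replicate 2 fell inside the Cas9 range. PDIA3 had 202 of 4989524 counts there and 50.6 of 993902 in Cas9 replicate 1. The 10 genes together took 0.189%, 0.0732% and 0.318% of counts in Flpo replicates 1, 2 and 3, against 0.0604% to 0.0765% in the Cas9 group and 0.0828% to 0.109% in the Cre group. These shares, and levels scaled by total count alone, are lowered where the most abundant symbol takes more of the counts. That symbol took 9.99% to 21.9% in the Cas9 group and 0.591% to 3.4% in the Flpo group. KRT8, a keratin, followed the same order within the Flpo group at 3249, 809 and 3014 CPM, as did KRT18 at 1575, 477 and 1421 CPM, and their part in the result was not tested.

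Depth also ran with some of these genes inside a group. Within the Cas9 group, HSPA5, HSP90B1, CALR, PDIA4, PDIA6 and XBP1 were higher the deeper the library, as were 31.2% of all genes, with HSPA5 3.81-fold higher in the deepest than in the shallowest. In the Cre group 3 of the 10 did so (30.3% of all genes), and in the Flpo group 1 (19.5%).

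Ratios between genes in one library do not depend on how libraries are scaled. CANX, chosen for this after its values were seen, served as the denominator; its own mean was higher in the Flpo group (the log2 fold change of 1.01 given above, not called). HSPA5 had 0.212, 0.355 and 0.621 counts per CANX count in the Cas9 libraries, 0.200, 0.877 and 0.316 in the Cre libraries and 1.69, 0.891 and 1.53 in the Flpo libraries. Cre replicate 2 almost reached the lowest Flpo library there. PDIA6 gave 0.106, 0.120 and 0.191 in the Cas9 group, 0.139, 0.106 and 0.128 in the Cre libraries and 0.840, 0.251 and 0.825 in the Flpo group. XBP1 gave 0.0439 to 0.0857, 0.0388 to 0.106 and 0.130 to 0.281 in the same order. All Flpo libraries were above all others for HSPA5, HSP90B1, PDIA6 and XBP1, as for 4.65% of 11904 genes tested. The lowest Flpo ratio exceeded the highest of the other 6 by 1.02-fold for HSPA5, 1.03-fold for HSP90B1, 1.23-fold for XBP1 and 1.32-fold for PDIA6. CALR, PDIA3 and PDIA4 overlapped. HERPUD1 had its highest ratios, 0.288 and 0.292, in Cre replicates 2 and 3, above all Flpo libraries (at most 0.177).

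**Figure D3:**
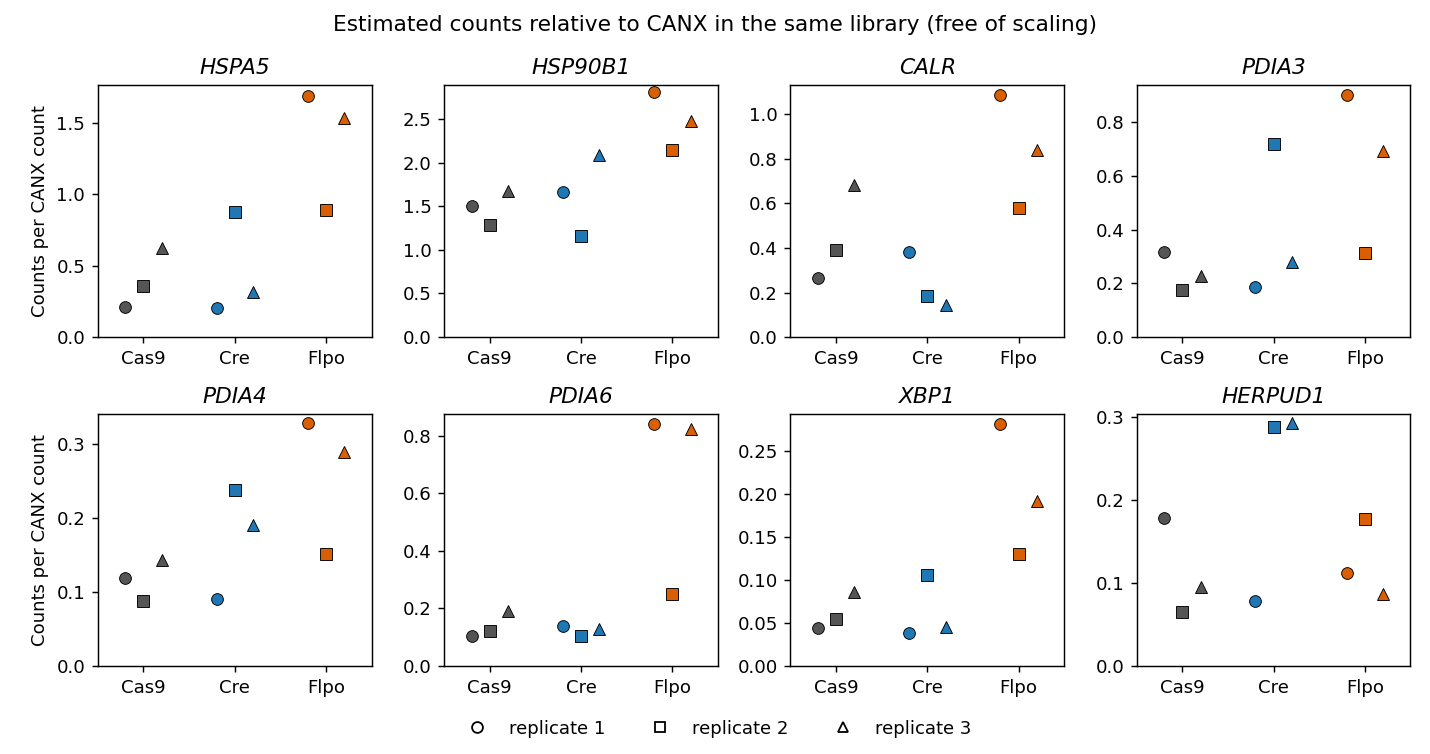
Estimated counts of 8 genes per count of CANX in the same library, on linear axes from 0, by group, with symbols for replicates. For HSPA5, HSP90B1, PDIA6 and XBP1 the 3 Flpo libraries are above the 6 others, by 1.02-fold at the closest for HSPA5, and for HERPUD1 the highest values are in the Cre group.

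Levels were compared between genes per kilobase of the longest coding transcript. In the Cas9 group the order was HSP90B1 (87.3 CPM per kb), CALR (40.6), CANX (39.7), HSPA5 (17.7), PDIA3 (10.5), PDIA6 (8.87), PDIA4 (6.71), HERPUD1 (5.97), XBP1 (5.69) and DNAJB9 (0.727). Neighbours in that order were apart in all libraries only between HSP90B1 and CALR, CANX and HSPA5, and XBP1 and DNAJB9, and the ranges of the others overlapped. In the Flpo group HSP90B1 led at 300.7 CPM per kb, followed by CALR at 156.5, HSPA5 at 129, PDIA6 at 93.5 and CANX at 79.9, with all neighbours overlapping but HERPUD1 (12.6) and DNAJB9 (1.32). PDIA6 stood in place 6 of 10 in the Cas9 group, 8 in the Cre libraries and 4 in the Flpo group, and CANX in places 3, 2 and 5. With the median transcript length in place of the longest, HERPUD1 took place 7 in place of 8 in the Cas9 group and 4 in place of 6 in the Cre group.

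The profiles of the tested genes over the 9 libraries, as log2 CPM, were described by Pearson's r, whose points share depth and group. HERPUD1 was least like the rest, with a median r of 0.418 to the other 8 genes, while those of the others were 0.828 to 0.925. HSPA5 and XBP1 were the most alike pair (r = 0.988), and CALR and HERPUD1 the least (r = 0.041). Of 7689 genes with a mean of at least 50 counts, the 5 most like the mean of the list over 9 libraries were IARS (r = 0.989), TMEM230 (0.989), C9orf64 (0.987), EIF4G2 (0.985) and TRAM1 (0.984). Such likeness was found above 0.95 for 106 genes, 1.38%. IARS, the cytosolic isoleucyl-tRNA synthetase, measured 52.4, 69.4 and 67.7 CPM in the Cas9 group, 67.7, 63.5 and 70.4 CPM in the Cre libraries and 246, 97.1 and 304 CPM in the Flpo group.

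The other genes of the pathway were taken as 5 lists with 109 genes, of which 104 were tested. None was called in Cre against Cas9 or Flpo against Cas9 by edgeR (background 0% and 0.227%). At an unadjusted edgeR p under 0.05 there were 8 and 28 of the 104, against 7.38% and 20% of all genes. DESeq2 called 0 and 13 of the 108 it tested, 0% and 12% against 0.0158% and 7.55% of all its genes. In Cre against Flpo 27 fell and 1 rose, 26.9% of those tested against 20.5% of all genes. Without TMM the calls were 13 lower and 4 higher, 16.3% against 24.2% of all genes. Leaving out Flpo replicate 2 gave 49 calls in Cre against Flpo (47.1% against 44.1% of all genes) and 25 in Flpo against Cas9 (24% against 21.3%), shares near the background. In Cre against Flpo there were 14 without Cas9 replicate 2 (13.2% against 10% of all genes) and 6 without Flpo replicate 3 (5.77% against 3.28%). There were 0 without Cre replicate 2, Cre replicate 3 or Flpo replicate 1, where 0 of all genes were called.

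The list of translocation and N-glycosylation, the steps by which proteins enter the ER and receive their sugars, had the most calls: 15 of 29 fell in Cre against Flpo and 0 rose, 51.7% against 20.5% of all genes, with a median log2 fold change of -1.79 against -0.34 for all genes. SPCS2, a subunit of signal peptidase, stood at 11.6, 26.4 and 61.1 CPM in the Cas9 group, 19.98, 14.9 and 10.3 CPM in the Cre libraries and 250.2, 79.2 and 386 CPM in the Flpo group. It fell by 3.96 on the log2 scale (SE 0.76; edgeR adjusted p = 0.0167), and no Cre library reached a Flpo library, though the value in Cre replicate 2 rests on 4 counts. SEC61G, a subunit of the translocation channel, fell by 3.69 (SE 0.92; edgeR adjusted p = 0.0211), and DAD1, a subunit of oligosaccharyltransferase, by 3.61 (SE 0.89; edgeR adjusted p = 0.0205). Their mean levels were 7.20 ± 7.86 and 17.2 ± 14.97 CPM in the Cre libraries and 115 ± 59.1 and 180 ± 105 CPM in the Flpo group (SD, n = 3). In Cre replicate 2 SEC61G had 0 counts and DAD1 9.

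Other folding factors of the ER gave 8 genes that fell and 1 that rose of 33 tested in Cre against Flpo, 27.3% against 20.5% of all genes, with a median of -0.83. PRDX4, a peroxiredoxin of the ER that uses hydrogen peroxide to form disulfide bonds, fell by 3.76 (SE 0.82; edgeR adjusted p = 0.0174), with 9 counts in Cre replicate 2. TXNDC5, a disulfide isomerase, fell by 3.26 (SE 1.05; edgeR adjusted p = 0.0439), with 0 counts in 2 of the 3 Cre libraries. FKBP10, a prolyl isomerase that acts on collagen, went the other way. FKBP10 measured 66.5, 25.8 and 27.7 CPM in the Cas9 group, 64.8, 224 and 148 CPM in the Cre libraries and 17.3, 8.69 and 18.0 CPM in the Flpo group. It rose in Cre against Flpo by 3.28 on the log2 scale (SE 0.62; edgeR adjusted p = 0.0167), with all Cre libraries above all Flpo libraries.

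The share called in Cre against Flpo, 20.5% over all genes, was 12.5% among the sensors and their regulators, 22.2% in the PERK arm and 4% in ERAD. Of the sensors and regulators 1 of 8 tested fell: TMBIM6, known as BAX inhibitor 1, by 2.92 (SE 0.73; edgeR adjusted p = 0.0217), from 548 ± 296 CPM in the Flpo group to 71.8 ± 39.0 CPM in the Cre group (SD, n = 3). The sensor genes ATF6, at -0.27 (SE 0.45; edgeR adjusted p = 0.663), and ERN1, which encodes IRE1, at 1.59 (SE 0.71; edgeR adjusted p = 0.113), did not pass, and EIF2AK3, which encodes PERK, had 0 to 34 counts and was not tested. These sensor genes were picked after their values were seen. In the PERK arm 2 of 9 fell, ATF4, its transcription factor, by 3.27 (SE 0.89; edgeR adjusted p = 0.0268) and PPP1R15A, also called GADD34, which ends the translational block, by 2.78 (SE 0.79; edgeR adjusted p = 0.0303). ATF4 stood at 20.8, 116 and 232 CPM in the Cas9 group, 40.9, 11.2 and 4.29 CPM in the Cre libraries and 259, 158 and 167 CPM in the Flpo group. The Cas9 libraries thus reached from below the highest Cre value into the Flpo range. In Cre replicates 2 and 3 ATF4 rests on 3 and 5 counts, and PPP1R15A had 1 count in Cre replicate 2. In ERAD 1 of 25 fell, SYVN1, which encodes HRD1, the ligase that HERPUD1 joins, by 3.46 (SE 0.96; edgeR adjusted p = 0.0285), on a mean of 46.3 counts and named here after its value was seen.

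Of 94 pathway genes with a RefSeq window, CRELD2 and ERO1B held ERSE and HYOU1 and SDF2L1 held ERSE-II. All 4 are ER folding genes, and none of them passed in any comparison in edgeR. TGACGTGG was found in 9 of the 94 (HYOU1, DNAJC10, TXNDC5, TXNDC11, VCP, UBE2J1, SEC62, SSR3 and SSR4), against 0.927% of 27305 genes. Of these 9, TXNDC5 and TXNDC11 fell in Cre against Flpo (edgeR adjusted p = 0.0439 and 0.0356), where 20.5% of all genes were called. The other 7 passed in no comparison. The TGACGTGG match in HYOU1 (chr11:119057386-119057393) overlapped an ERSE-II match (chr11:119057380-119057390), so shared bases count under both motifs. HYOU1, an ER chaperone of the Hsp110 type, measured 17.4, 13.2 and 21.7 CPM in the Cas9 group and 24.7, 19.2 and 23.6 CPM in the Flpo group, where it overlapped. CRELD2 came nearest to a call, at -1.66 in Cre against Flpo (SE 0.68; edgeR adjusted p = 0.0893). Among the 10, ERSE was held by the 4 genes called in Cre against Flpo (HSPA5, CALR, PDIA6 and XBP1) and by CANX and HSP90B1, which were not called. Of those without it, PDIA4 and HERPUD1 were not called (edgeR adjusted p = 0.057 and 0.867) and DNAJB9 was not tested. PDIA3, narrowly short of a call (edgeR adjusted p = 0.0518), had no window. A link between the motifs and the levels was not tested.

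**Figure D4:**
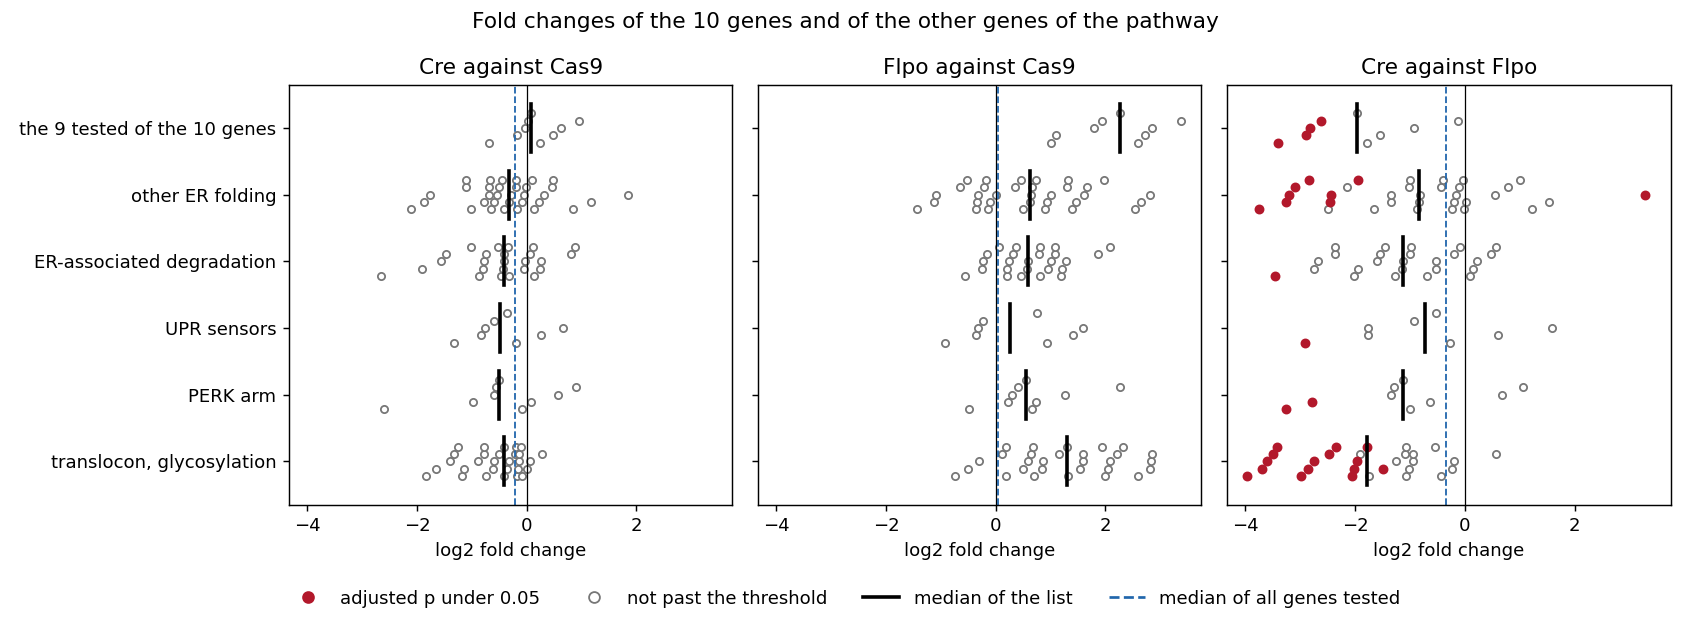
Log2 fold changes of the tested genes of the list and of the 5 pathway lists in the 3 comparisons; each point is a gene, filled red where it passed the adjusted threshold, the black bar is the median of a list and the dashed line that of all genes. Calls appear only in Cre against Flpo, most of them lower, with 15 in the list of translocation and glycosylation and FKBP10 the 1 higher.

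Across 20 to 22 ways of processing, the fold change of each tested gene in Flpo against Cas9 stayed above 0. PDIA6 ran from 2.02 to 3.87 and was called in 5 of 20, HSPA5 from 2.31 to 3.32 in 5 of 22, and CANX from 0.42 to 1.49 in 1 of 22. In Cre against Flpo, HSPA5 ran from -3.81 to -2.02 and was called in 16 of 22, PDIA6 from -3.88 to -1.27 in 15 of 20, XBP1 from -3.53 to -2.02 in 15 of 20 and CALR from -3.65 to -0.18 in 14 of 21. HERPUD1 ran from -1.05 to 0.67 and was called in 0 of 21. These fits reuse the same libraries, and include the main fit and 1 chosen after seeing the data, so they are not independent. The share of all genes called ran from 0% to 61% in Flpo against Cas9 and from 0% to 67.6% in Cre against Flpo.

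**Figure D5:**
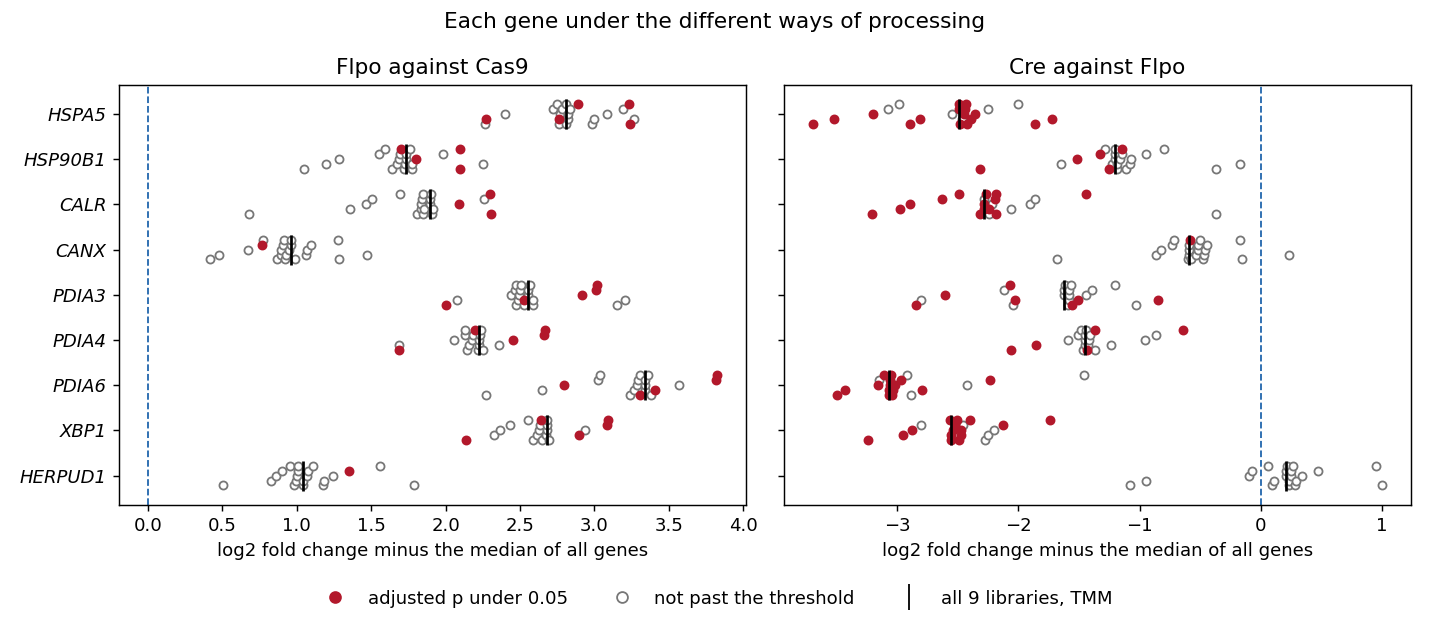
Log2 fold change minus the median of all genes for each tested gene; each point is 1 way of processing (other scalings, filters, tools or a library left out), filled red where the gene passed the adjusted threshold, and the black tick is the fit with all 9 libraries and TMM. In Flpo against Cas9 all points lie above 0, mostly without a call, and in Cre against Flpo HSPA5, PDIA6, XBP1 and CALR are called most often.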

How the data were processed

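TRIzol RNA was made into TruSeq libraries, per the labels' protocols. The authors deposited 1 table of estimated counts per gene symbol (35876 symbols, 9 libraries), not normalized. Salmon 0.14.1 and the build hg38 are named in the submitters' processing notes. The annotation, filters and use of strand are not given in the sources used here. Of the values above 0, 48.7% to 60.8% a library were not whole numbers, as arises where reads are shared between genes. The design assumed whole counts, so the deposited estimated counts were rounded.

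Groups were taken from the sample titles. The main test was the quasi-likelihood test of edgeR 4.0.16 (R 4.3.3), fitted to all 9 libraries with TMM scaling, no covariates and edgeR's default filter (minimum count 10, minimum total 15), which left 11905 genes. P-values were adjusted by Benjamini-Hochberg over all of them, with a threshold of 0.05. Standard errors come from edgeR's F statistic, as the size of the log2 fold change over the root of F. The common biological coefficient of variation was 0.556. The script was tested on simulated counts. Alternatives used DESeq2 1.42.0, limma 3.58.1 and other scalings, filters and library sets. Total counts of 213907 to 8833491 mean that 3 counts stand for 0.479 to 11.2 CPM. No 2 libraries agreed within sampling noise (lowest chi-square per degree of freedom 12.5). That lowest value was between groups, for Cas9 replicate 2 and Cre replicate 1, and the lowest within a group was 13.3. Flpo replicate 2 was at 293 and 307 from Flpo replicates 1 and 3, and at 41.7 to 160 from the Cas9 and Cre libraries. The measure also grows with depth, which differed between these libraries.

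The 10 genes and the lists were chosen with earlier results of these data known. Named genes are the 10, the 3 called genes of largest change per list and comparison with a mean of at least 50 counts, and the 5 genes most like the list. Symbols were matched to GENCODE release 29 and promoters to RefSeq (GRCh38.p14). Protein sequences and the promoter of PDIA3 were not used here.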

Additional observations from a re-analysis of the deposited data

How the results depend on the processing

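Settings are compared with edgeR, TMM and all 9 libraries, where 0, 0 and 4 of the 10 genes and 0, 0 and 28 of the other pathway genes passed in the comparisons of Cre with Cas9, Flpo with Cas9 and Cre with Flpo. In Flpo against Cas9, DESeq2 called 6 of the 10 and 13 pathway genes, no filter 5 and 14, and voom with quality weights 9 and 60. The pathway shares were 12% with DESeq2 and 12.8% with no filter, against 7.55% and 4.6% of all genes. In Cre against Flpo, DESeq2 called 7 of the 10, voom 8 and 72 pathway genes, no TMM 2 and 17, thinning to the smallest total 2 and 13, and the total as a covariate 0 and 0. The pathway shares were 16.3% with no TMM and 23.6% after thinning, against 24.2% and 24.1% of all genes. DESeq2 called 27.3% of all its genes there. In Cre against Cas9, voom called 2 and 23. The pathway shares under voom were 57.7%, 69.2% and 22.1% in Flpo against Cas9, Cre against Flpo and Cre against Cas9, against 61%, 67.6% and 33.3% of all genes. After thinning, 5 of the 10 and 55 pathway genes were tested, and PDIA6 and XBP1 were not among them. Leaving out 1 library gave 0 to 0, 0 to 7 and 0 to 7 of the 10, and 0 to 0, 0 to 25 and 0 to 49 pathway genes. The highest counts came without Flpo replicate 2, where 21.3% of all genes were called in Flpo against Cas9 and 44.1% in Cre against Flpo. Dropping the second Cre and Flpo replicates together, chosen after seeing the data, gave 7 and 27 in Flpo against Cas9 and 7 and 51 in Cre against Flpo. The pathway shares in that fit were 26% and 49%, against 23.8% and 41.2% of all genes. The filters, thinning and left-out libraries change the genes or samples tested by construction, and for the other settings the cause was not tested.

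All 181 other fits of a single gene in Flpo against Cas9 kept its direction. Signs turned in 28 of the 181 fits of Cre against Cas9 and in 6 of the 181 of Cre against Flpo, all for values that had not passed with edgeR, TMM and all 9 libraries. In Cre against Cas9, HSPA5 (0.03) gave -0.09 with no filter, -0.52 with at least 10 counts in every library, -0.03 with only the groups compared, -0.28 thinned, -0.36 with voom and -0.53 without the second replicates. HSP90B1 gave -0.15 and CANX -0.29 with the stricter filter, and CANX -0.26 with voom. CALR gave 0.25, PDIA6 0.75 and XBP1 0.17 with the covariate, PDIA6 0.25 and XBP1 0.12 without TMM, and PDIA6 0.15 without the second replicates. In Cre against Flpo, HSP90B1 and CANX each gave 0.02 with the covariate, and HERPUD1 0.67 without TMM and 0.01 with voom. Leaving out 1 library gave, in Cre against Cas9, -0.53 to 0.48 for HSPA5, -0.06 to 0.53 for HSP90B1, -0.23 to 0.22 for CANX, -0.45 to 0.29 for PDIA6 and -0.45 to 0.17 for XBP1, and, in Cre against Flpo, -0.45 to 0.19 for HERPUD1.

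The labels give the groups the same replicate numbers. Same-numbered libraries did not deviate together (correlations of -0.48, -0.15 and -0.37 in Cre against Cas9, -0.55, -0.26 and 0.53 in Flpo against Cas9, and 0.37, 0.19 and -0.22 in Cre against Flpo), so the numbers were not taken as pairs. With the replicate block 0, 0 and 4 of the 10 genes passed, and 0, 0 and 18 pathway genes. Those 18 were 17.3% of the pathway genes tested, against 13.2% of all genes. Depth limits DNAJB9, and the values of Cre replicate 2, where CALR, PDIA4, PDIA6 and XBP1 rest on 4 to 9 counts.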
